A study of Mus musculus with 9 samples.

Results

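The brain transcript levels of Cd5l and of 8 genes of the fatty acid synthesis pathway around it were examined in all 9 libraries of the series. The genes were chosen by symbol: Cd5l, Cd36, Fasn, Acaca, Scd1, Scd2, Srebf1, Nr1h2 and Nr1h3, 9 of the 56748 genes in the count table. All 9 passed the filter on low counts that left 17575 genes for testing, Cd5l only through the genotype that carries its transgene. RNA came from brain without cerebellum of mice aged 7 months, with 3 libraries per genotype, each labelled as 1 mouse. The first genotype, 5xFAD/Cd5l tg/wt, carries the 5xFAD transgenes plus mouse Cd5l expressed from the PDGF-B promoter of human origin. The second, 5xFAD, carries the amyloid transgenes without the Cd5l transgene, and the third was wild-type. As background, 5xFAD mice express mutant human transgenes, APP among them, from Thy1 constructs and deposit amyloid early, and the PDGF-B promoter is used to drive transgenes mainly in neurons, which do not normally make Cd5l. The sex of the animals is not given in the labels used here.

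CD5L, also called AIM, is a secreted protein with scavenger receptor cysteine-rich domains that tissue macrophages make under the control of the liver X receptors (LXR), encoded by Nr1h3 and Nr1h2. In mouse adipocytes it is taken up through the receptor CD36 and binds fatty acid synthase, the Fasn product, in the cytosol, which lowers the activity of that enzyme. LXR also activates Srebf1, whose product SREBP1 switches on the genes of fatty acid synthesis: Acaca makes malonyl-CoA, Fasn builds palmitate from it, and the desaturases Scd1 and Scd2 turn saturated into monounsaturated fatty acids. In brain this pathway supplies myelin lipids, and much of it is active in oligodendrocytes and astrocytes.

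The promoter sequences of 3 genes are shown for context, and no count below depends on them: the endogenous Cd5l start, which the PDGF-B promoter replaces in the transgene, and the starts of Srebf1 and Fasn, the regulator and target whose levels went together most closely across libraries. Sequences are from RefSeq, build GRCm38.p6, and not from the build of the counts, GRCm39. Each runs from 250 bases before to 50 after a start, 5′ to 3′ on the strand of the gene. Capitals mark E-boxes (CANNTG) and CCAAT boxes (CCAAT) on either strand. Cd5l lies on the plus strand at chr3:87357631-87357930, Fasn on the minus strand at chr11:120824498-120824797, and the most downstream of 3 listed Srebf1 starts on the minus strand at chr11:60210422-60210721.
Cd5l: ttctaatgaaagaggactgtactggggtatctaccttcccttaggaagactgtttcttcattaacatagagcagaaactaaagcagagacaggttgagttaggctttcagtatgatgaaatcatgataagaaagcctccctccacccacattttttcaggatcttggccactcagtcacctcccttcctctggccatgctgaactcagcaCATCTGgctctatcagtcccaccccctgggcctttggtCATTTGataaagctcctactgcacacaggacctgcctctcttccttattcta
Fasn: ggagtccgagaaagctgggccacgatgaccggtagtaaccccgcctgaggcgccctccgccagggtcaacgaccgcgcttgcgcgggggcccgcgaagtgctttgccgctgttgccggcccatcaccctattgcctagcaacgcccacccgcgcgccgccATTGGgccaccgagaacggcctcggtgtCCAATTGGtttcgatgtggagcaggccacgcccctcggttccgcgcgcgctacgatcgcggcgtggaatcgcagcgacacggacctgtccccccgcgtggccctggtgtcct
Srebf1: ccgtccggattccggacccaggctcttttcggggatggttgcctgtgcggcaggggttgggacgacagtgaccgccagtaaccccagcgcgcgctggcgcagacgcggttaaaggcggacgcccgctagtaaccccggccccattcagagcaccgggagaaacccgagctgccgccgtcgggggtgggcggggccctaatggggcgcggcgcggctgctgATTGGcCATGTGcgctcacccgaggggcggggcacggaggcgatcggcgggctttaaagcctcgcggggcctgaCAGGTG

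The Cd5l promoter held 2 E-boxes and no CCAAT box. The Fasn promoter held 3 CCAAT boxes, 2 of which overlap each other and its single E-box in 1 palindromic run, and the Srebf1 promoter shown held 2 E-boxes and 1 CCAAT box, the motif bound by NF-Y, a partner of SREBP. Of 9 members, 7 matched the promoter table with 10 starts, of which 9 held an E-box and 4 a CCAAT box. Scd1 and Scd2 did not match, so no motif count among the members covers these desaturase genes. Several of the 10 starts belong to Srebf1, and those of Nr1h3 overlap each other. Over all 32851 promoters of the table the shares were 72.3% and 37.4%. The sterol regulatory element TCACNCCAC was in 0 of the 10 and in 1.24% of all promoters. A perfect direct repeat of the LXR half-site (DR4, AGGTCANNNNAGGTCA) was in 0 of the 10 and in 0.0152% of all. Both were searched on both strands.

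Cd5l transcripts were abundant in the mice with the transgene and close to absent in the others. Cd5l (chromosome 3, 87265188 to 87278380, GRCm39) had 2553, 2822 and 3551 counts in 5xFAD/Cd5l tg/wt libraries 1, 2 and 3, against 0 in each 5xFAD library and 0, 1 and 0 in wild-type libraries 1, 2 and 3. Scaled for library size as CPM, these were 170.0, 190.3 and 200.4 CPM in 5xFAD/Cd5l tg/wt mice, or 187 ± 15.5 CPM (SD, n = 3). The level was at least 2982-fold higher than in 5xFAD mice, set against a floor of 3 counts over the whole 5xFAD group (0.0627 CPM, counting error only). Against the 1 count of the wild-type group the ratio was 9027, with a 95% exact binomial counting interval of 1620 to 356581. The counts do not separate transgene from endogenous transcripts. A count of 0 in all 5xFAD libraries limits the endogenous level at this depth and does not show that it is absent.

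Per length of transcript, Cd5l ranked 403, 328 and 325 among protein-coding genes in 5xFAD/Cd5l tg/wt libraries 1, 2 and 3, within the top 2.47%, 2.01% and 1.97% of those with a count. It took 0.0170% to 0.0201% of the counts of these libraries. The coefficient of variation among the mice with the transgene was 8.28%. In the same mice the 8 lipid genes ran from 7.27% for Acaca to 58.4% for Cd36, with 12.95% for Fasn and 9.90% for Scd1. Around the endogenous locus the table lists 13 other genes within 250 kb, and 5 of them were tested. None of the 5 passed between 5xFAD/Cd5l tg/wt and 5xFAD mice, and their lowest adjusted p was 0.0664, for the pseudogene Gm10705 with 325 counts in the 5xFAD/Cd5l tg/wt group and 76 in the 5xFAD group. Markers of macrophages outside the brain tissue proper, which make Cd5l in other organs, were low: the 8 markers summed to 3.98 to 8.99 CPM in 5xFAD/Cd5l tg/wt libraries, 6.23 to 6.82 CPM in 5xFAD and 4.59 to 6.75 CPM in wild-type, with Marco at 0 in both amyloid genotypes and Vsig4 at 0 in 5xFAD/Cd5l tg/wt and wild-type.

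**Figure D1:**
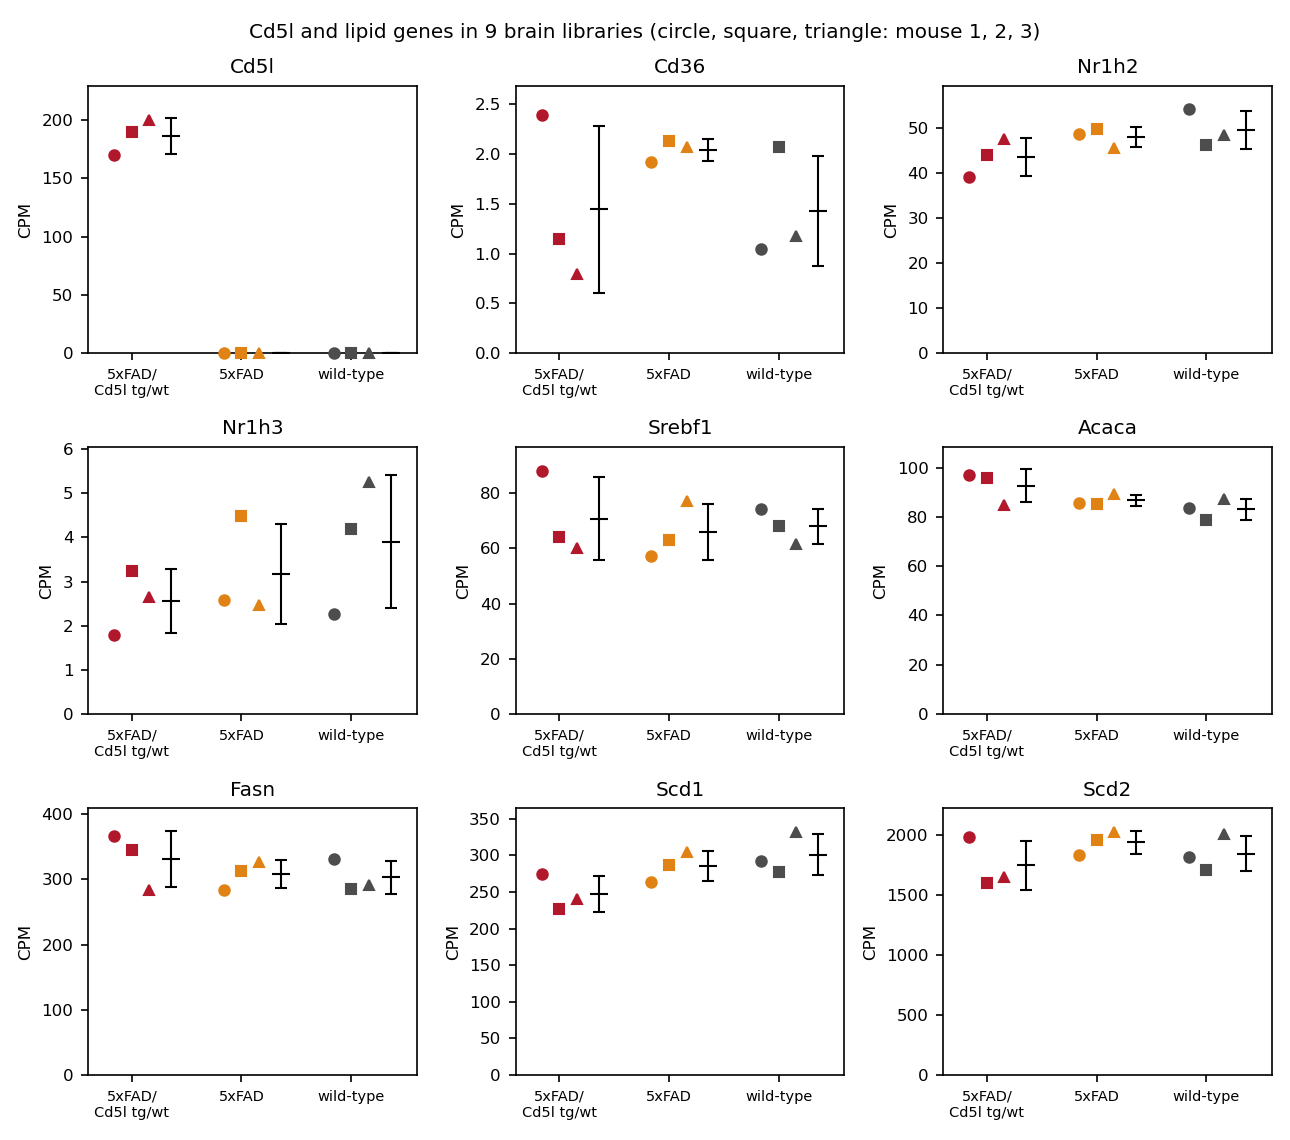
CPM of Cd5l and the 8 lipid genes (vertical axes, each starting at 0) in each of the 9 libraries, by genotype. Circles, squares and triangles are mice 1, 2 and 3 of a genotype, and bars show mean ± SD (n = 3). Cd5l stands at 170.0 to 200.4 CPM in the 5xFAD/Cd5l tg/wt libraries and at or next to 0 in the other 6. For the other genes the genotypes overlap, except that Scd1 in 5xFAD/Cd5l tg/wt lies below wild-type. Cd36 and Nr1h3 scatter the most for their level.

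The libraries held 14575416 to 17865150 counts. Defining markers of brain cells were present in all genotypes, with the 6 neuronal markers at 5595 to 6314 CPM in sum, and cerebellar markers were highest in wild-type library 3 (555 CPM in sum, against 35.3 to 115 CPM in the other libraries). Earlier work on these data found 3 libraries (this one, 5xFAD/Cd5l tg/wt 2 and 5xFAD/Cd5l tg/wt 3) apart in markers of brain regions. For the last 2 those markers are not given here, and their cerebellar sums were 35.3 and 60.6 CPM. The differences of the 8 lipid genes in 5xFAD/Cd5l tg/wt mice are also given without these 3 libraries. That fit keeps 1 library of 5xFAD/Cd5l tg/wt, which is assumed to vary like the other genotypes. Of 7 microglial markers, 7 rose in 5xFAD against wild-type mice, and 6 did so in 5xFAD/Cd5l tg/wt mice, with sums of 664 to 748 CPM in 5xFAD/Cd5l tg/wt libraries, 556 to 714 CPM in 5xFAD and 315 to 347 CPM in wild-type. Nuclear-retained RNAs such as Malat1 were low in 5xFAD libraries: 5 such RNAs summed to 2810 to 3945 CPM in 5xFAD/Cd5l tg/wt, 1070 to 1323 CPM in 5xFAD and 2606 to 3287 CPM in wild-type. The 5 were Malat1, Meg3, Neat1, Kcnq1ot1 and Xist, the last of which depends on sex, and their single values are not given here. In these bulk samples fewer cells of a type and less RNA per cell cannot be told apart.

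Set on a common scale, CPM per kilobase of the gene length in the table, the pathway was led by Scd2. It averaged 337 ± 29.0 CPM per kilobase over the 9 libraries. Cd5l came next in the mice with the transgene, at 91.8 ± 7.6 CPM per kilobase (n = 3), followed by Scd1 at 56.8 ± 6.54 and Fasn at 28.7 ± 2.75 CPM per kilobase (n = 9). Nr1h2 (14.0 ± 1.23 CPM per kilobase) and Srebf1 (12.1 ± 1.75) overlapped in their ranges over libraries and were the only neighbours in this order that did. Acaca stood at 5.12 ± 0.342, Nr1h3 at 1.28 ± 0.465 and Cd36 at 0.456 ± 0.165 CPM per kilobase. In the 5xFAD/Cd5l tg/wt genotype Cd5l took the second place in the order of means, and in 5xFAD and wild-type mice it was the last. The other 8 genes kept 1 order in all 3 genotypes.

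**Figure D2:**
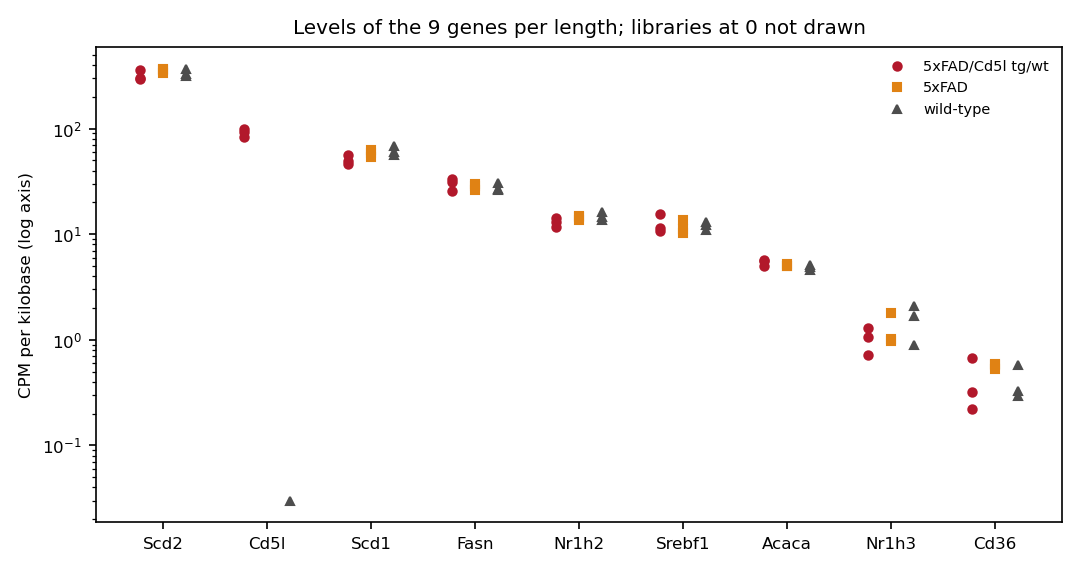
Level of each of the 9 genes per length (CPM per kilobase, log axis) in each library, genes ordered by mean level. Red circles are 5xFAD/Cd5l tg/wt, orange squares 5xFAD and grey triangles wild-type. Libraries with 0 counts, all of them for Cd5l, are not drawn. Scd2 leads at 337 CPM per kilobase, and Cd5l in the transgenic mice lies between Scd2 and Scd1.

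None of the 8 lipid genes passed in any comparison with all 9 libraries and the filter on low counts. The threshold was 0.05 for p adjusted by Benjamini-Hochberg over the 17575 tested genes of edgeR's quasi-likelihood test. In this test 0 of 8 were called in 5xFAD/Cd5l tg/wt against 5xFAD, where 6.23% of all tested genes were. The count was 0 of 8 in 5xFAD against wild-type (3.5% of all genes) and 0 of 8 in 5xFAD/Cd5l tg/wt against wild-type (1.58% of all genes). At an unadjusted p under 0.05 the counts were 1, 0 and 1 of the 8 genes in the same order, against 22.3%, 16.3% and 12.4% of all genes. The libraries of the compared genotypes did not overlap for 0, 0 and 1 of the 8, against 28.7%, 24.3% and 14.5% of all genes. Without 5xFAD/Cd5l tg/wt library 1 the calls were 2, 0 and 1 of the 8. Over all genes they were then 2069, 850 and 686 of 17942, against 1095, 615 and 277 of 17575 with all libraries. With all libraries and no filter, 1 of the 8 passed, Scd1 in 5xFAD/Cd5l tg/wt against wild-type, where 1062 of 31362 genes did. With the filter, DESeq2 and limma-voom gave 0 calls and the same counts at the unadjusted threshold. The median log2 fold change of the 8 was -0.14 in 5xFAD/Cd5l tg/wt against 5xFAD, -0.01 in 5xFAD against wild-type and -0.04 between 5xFAD/Cd5l tg/wt and wild-type, where the medians of all tested genes were 0.01, -0.01 and 0.00.

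The intervals say what size of change these libraries leave possible. For Fasn, Acaca, Scd1, Scd2, Srebf1 and Nr1h2, the unadjusted 95% intervals together ran from 0.757-fold to 1.33-fold in 5xFAD/Cd5l tg/wt against 5xFAD. They ran from 0.779-fold to 1.20-fold in 5xFAD against wild-type and from 0.717-fold to 1.29-fold in 5xFAD/Cd5l tg/wt against wild-type. A 2-fold change in either direction lay outside every one of these intervals, each taken alone. Cd36 and Nr1h3 had wider intervals, with 14 to 38 and 27 to 80 counts per library and coefficients of variation of 36.1% and 36.3% over the 9 libraries. Their intervals in 5xFAD/Cd5l tg/wt against 5xFAD ran from 0.384-fold to 1.35-fold, in 5xFAD against wild-type from 0.496-fold to 2.6-fold, and in 5xFAD/Cd5l tg/wt against wild-type from 0.393-fold to 1.81-fold.

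**Figure D3:**
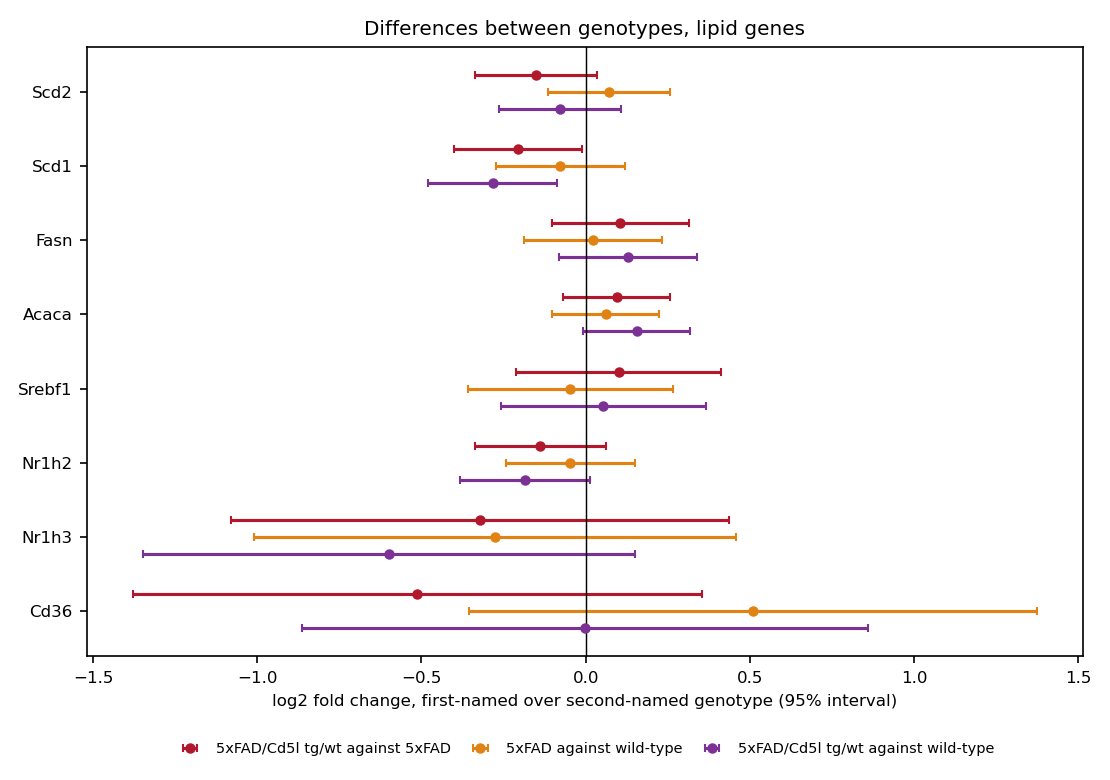
Log2 fold change of the 8 lipid genes in the 3 comparisons (horizontal axis, first-named over second-named genotype), with unadjusted 95% intervals from the edgeR fit (n = 3 libraries per genotype). All intervals but the 2 of Scd1 for 5xFAD/Cd5l tg/wt cross 0, and Cd36 and Nr1h3 have the widest.

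Cd36, the fatty acid receptor through which CD5L enters adipocytes and which endothelium, macrophages and choroid plexus carry, was the lowest gene of the group. Cd36 (chromosome 5, 17986688 to 18093799) had 2.40, 1.15 and 0.790 CPM in 5xFAD/Cd5l tg/wt libraries 1, 2 and 3, against 1.92, 2.13 and 2.07 CPM in 5xFAD and 1.05, 2.07 and 1.18 CPM in wild-type libraries. These rest on 14 to 38 counts per library. The genotypes overlapped: library 1 of the 5xFAD/Cd5l tg/wt mice was the highest of all 9 and library 3 the lowest. The log2 difference was -0.51 ± 0.40 (SE) in 5xFAD/Cd5l tg/wt against 5xFAD (adjusted p = 0.481), 0.51 ± 0.40 in 5xFAD against wild-type (0.597) and -0.0014 ± 0.40 between 5xFAD/Cd5l tg/wt and wild-type (0.999). Endothelial markers, 6 genes, summed to 143 to 186 CPM in 5xFAD/Cd5l tg/wt, 92.5 to 120 CPM in 5xFAD and 137 to 151 CPM in wild-type libraries. The 5xFAD mice had the lowest endothelial sums and the highest mean of Cd36. The 8 markers of macrophages outside the brain tissue proper summed to 8.99, 3.98 and 4.01 CPM in 5xFAD/Cd5l tg/wt libraries. Their sums were 6.82, 6.23 and 6.36 CPM in 5xFAD and 4.59, 6.75 and 5.95 CPM in wild-type libraries. Choroid plexus markers, 5 genes, summed to 324, 507 and 803 CPM in 5xFAD/Cd5l tg/wt libraries. Their sums were 583, 532 and 615 CPM in 5xFAD and 760, 632 and 425 CPM in wild-type libraries. Without the 3 libraries with differing regional markers Cd36 turned to 0.21 against 5xFAD and was 0.62 against wild-type (adjusted p = 0.817 and 0.596). The part of cell composition in the Cd36 values was not tested.

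The 2 LXR genes differed mainly from each other. Nr1h2, which encodes the widely expressed LXR beta (chromosome 7, 44199040 to 44203375), had 39.1, 44.0 and 47.5 CPM in 5xFAD/Cd5l tg/wt libraries 1, 2 and 3, against 48.6, 49.7 and 45.6 CPM in 5xFAD and 54.1, 46.1 and 48.3 CPM in wild-type. The genotypes overlapped, and the lowest value of all was that of 5xFAD/Cd5l tg/wt library 1. On the log2 scale it differed by -0.14 ± 0.09 in 5xFAD/Cd5l tg/wt against 5xFAD (adjusted p = 0.404), -0.05 ± 0.09 in 5xFAD against wild-type (0.860) and -0.18 ± 0.09 between 5xFAD/Cd5l tg/wt and wild-type (0.450). Leaving out the same 3 libraries gave Nr1h2 differences of -0.31 from 5xFAD and -0.36 from wild-type (adjusted p = 0.146 and 0.173).

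Nr1h3, which encodes LXR alpha, the receptor enriched in macrophages and liver (chromosome 2, 91014406 to 91033179), had 1.80, 3.24 and 2.65 CPM in 5xFAD/Cd5l tg/wt libraries, against 2.58, 4.49 and 2.48 CPM in 5xFAD and 2.27, 4.20 and 5.26 CPM in wild-type. Its spread within a genotype was as wide as the distance between genotypes, with coefficients of variation of 28.2%, 35.6% and 38.8%. No difference passed: -0.32 ± 0.35 in 5xFAD/Cd5l tg/wt against 5xFAD (adjusted p = 0.625), -0.28 ± 0.34 in 5xFAD against wild-type (0.756) and -0.60 ± 0.35 between 5xFAD/Cd5l tg/wt and wild-type (0.532). The unadjusted 95% intervals against wild-type ran from -1.01 to 0.46 in 5xFAD and from -1.35 to 0.15 in 5xFAD/Cd5l tg/wt mice. Microglial markers rose in both genotypes, and their part in the Nr1h3 values was not tested. Without the 3 libraries with differing regional markers the differences of 5xFAD/Cd5l tg/wt mice were -0.85 from both 5xFAD and wild-type (adjusted p = 0.337 and 0.492). Per kilobase, Nr1h2 stood above Nr1h3 by a ratio of at least 6.90 in every library. Nr1h3 overlaps the noncoding gene Gm13783, which had at most 4 counts in a library.

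Srebf1, the sterol-regulated transcription factor gene downstream of LXR (chromosome 11, 60089915 to 60113407), varied more between mice than between genotypes. It had 87.9, 63.9 and 60.1 CPM in 5xFAD/Cd5l tg/wt libraries 1, 2 and 3, against 57.2, 63.1 and 77.2 CPM in 5xFAD and 74.2, 68.2 and 61.5 CPM in wild-type. Library 1 of the 5xFAD/Cd5l tg/wt mice was the highest and 5xFAD library 1 the lowest, and the genotypes overlapped. The fitted log2 difference was 0.10 ± 0.14 in 5xFAD/Cd5l tg/wt against 5xFAD (adjusted p = 0.717), -0.05 ± 0.14 in 5xFAD against wild-type (0.916) and 0.05 ± 0.14 between 5xFAD/Cd5l tg/wt and wild-type (0.922). Without 5xFAD/Cd5l tg/wt library 1 the first and the last turned to -0.09 and -0.14. Without the 3 libraries with differing regional markers they were 0.40 and 0.30 (adjusted p = 0.108 and 0.366). Srebf1 overlaps Rai1 on the opposite strand, which had 1185 to 1517 counts, and since strand use in counting is not given, reads of the pair may not be fully separated.

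Acaca, the cytosolic acetyl-CoA carboxylase that commits acetyl-CoA to synthesis (chromosome 11, 84020498 to 84292477), had 97.1, 95.9 and 84.9 CPM in 5xFAD/Cd5l tg/wt libraries, against 85.8, 85.2 and 89.1 CPM in 5xFAD and 83.5, 78.7 and 87.2 CPM in wild-type. It was the steadiest of the genes, with a coefficient of variation of 6.67% over all 9 libraries. Libraries 1 and 2 of the 5xFAD/Cd5l tg/wt mice were the highest and library 3 lay among the others. On the log2 scale the difference was 0.09 ± 0.08 in 5xFAD/Cd5l tg/wt against 5xFAD (adjusted p = 0.492), 0.06 ± 0.08 in 5xFAD against wild-type (0.759) and 0.16 ± 0.08 between 5xFAD/Cd5l tg/wt and wild-type (0.438). For Acaca the fit without the 3 libraries gave 0.15 against 5xFAD and 0.25 against wild-type (adjusted p = 0.363 and 0.222).

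Fasn, the multi-domain synthase that CD5L binds in adipocytes (chromosome 11, 120696672 to 120715373), had 366, 345 and 283 CPM in 5xFAD/Cd5l tg/wt libraries 1, 2 and 3, against 284, 313 and 326 CPM in 5xFAD and 332, 286 and 292 CPM in wild-type. The genotype with the Cd5l transgene held both the highest and the lowest library of all 9. Its mean was 332 ± 42.9 CPM, against 308 ± 21.5 CPM in 5xFAD and 303 ± 24.9 CPM in wild-type mice (SD, n = 3 each). The log2 difference was 0.11 ± 0.10 in 5xFAD/Cd5l tg/wt against 5xFAD, with a 95% interval from -0.10 to 0.32 (adjusted p = 0.553). It was 0.02 ± 0.10 in 5xFAD against wild-type (0.943) and 0.13 ± 0.10 between 5xFAD/Cd5l tg/wt and wild-type (0.649). In the fit without the 3 libraries, Fasn was 0.23 against 5xFAD and 0.24 against wild-type (adjusted p = 0.158 and 0.261). In adipocytes CD5L acts on the enzyme, and enzyme activity and fatty acids were not measured in these files.

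Across the 9 libraries Srebf1 was compared with 4 of its known target genes, a choice made after the values were seen. With Fasn, Pearson's r of log2 CPM was 0.76 (exact permutation p = 0.0168, two-sided, 0.0670 after Benjamini-Hochberg adjustment over the 4) and Spearman's rho was 0.78 (exact permutation p = 0.0172, adjusted 0.0689). The relation thus did not pass adjustment. Without the 2 libraries farthest from the median of Srebf1 it was 0.52, and within genotypes, after removal of their means, 0.79. With Acaca, Scd1 and Scd2, r was 0.39, 0.24 and 0.40 (exact permutation p = 0.30, 0.532 and 0.288) and rho was 0.28, 0.28 and 0.30 (exact permutation p = 0.463, 0.463 and 0.437), all with adjusted p of 0.3997 or more. Without the 2 farthest libraries these 3 values of r were -0.31, 0.22 and -0.09, and within genotypes they were 0.45, 0.53 and 0.61.

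Scd1 came closest to a difference. This stearoyl-CoA desaturase gene (chromosome 19, 44382894 to 44396318) had 274, 226 and 241 CPM in 5xFAD/Cd5l tg/wt libraries 1, 2 and 3, against 264, 287 and 305 CPM in 5xFAD and 292, 278 and 332 CPM in wild-type. All 3 libraries with the transgene lay below all 3 wild-type ones, and library 1 overlapped with 5xFAD. On the log2 scale it differed by -0.28 ± 0.09 in 5xFAD/Cd5l tg/wt against wild-type (unadjusted p = 0.00819, adjusted p = 0.192), -0.21 ± 0.09 in 5xFAD/Cd5l tg/wt against 5xFAD (0.0401, adjusted 0.201) and -0.08 ± 0.09 in 5xFAD against wild-type (adjusted 0.745). With no filter the difference from wild-type was -0.29 and passed (adjusted p = 0.0108), in a fit where 1062 of 31362 genes did. Scd1 was the single one of the 8 genes whose libraries did not overlap in 5xFAD/Cd5l tg/wt against wild-type, where 14.5% of all tested genes did not overlap.

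Scd2, the main desaturase gene of brain in mice (chromosome 19, 44282113 to 44295303), had 1978, 1602 and 1652 CPM in 5xFAD/Cd5l tg/wt libraries, against 1831, 1955 and 2021 CPM in 5xFAD and 1817, 1708 and 2001 CPM in wild-type. Libraries 2 and 3 with the transgene were the lowest of all 9, and library 1 lay among the highest. The fitted log2 difference was -0.15 ± 0.09 in 5xFAD/Cd5l tg/wt against 5xFAD (adjusted p = 0.326), 0.07 ± 0.09 in 5xFAD against wild-type (0.751) and -0.08 ± 0.09 between 5xFAD/Cd5l tg/wt and wild-type (0.778). Both desaturases depended on the libraries kept. Without library 1, Scd1 fell by 0.29 and Scd2 by 0.25 on the log2 scale in 5xFAD/Cd5l tg/wt against 5xFAD (adjusted p = 0.0496 and 0.0388). Scd1 then fell by 0.37 against wild-type (0.0370), so that 2 and 1 of the 8 genes passed. Calls over all genes were then 2069 and 686, against 1095 and 277 with all libraries. That fit keeps libraries 2 and 3, which had differing regional markers. Without library 2 the differences of Scd1 and Scd2 from 5xFAD were -0.15 and -0.09, and without library 3 they were -0.19 and -0.12. Without the 3 libraries with differing regional markers, Scd1 differed by -0.07 from 5xFAD and -0.06 from wild-type (adjusted p = 0.643 and 0.797). In that fit Scd2 turned to 0.01 against 5xFAD and 0.16 against wild-type.

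Both desaturase genes are highly expressed in oligodendrocytes, and markers of mature oligodendrocytes are given beside them. Their 7 markers summed to 7071, 4706 and 6445 CPM in 5xFAD/Cd5l tg/wt libraries 1, 2 and 3, against 7400, 7526 and 6663 CPM in 5xFAD and 8287, 7374 and 7969 CPM in wild-type. The transgenic libraries all lay below the wild-type ones, and library 2, the lowest of all, was also the lowest for Scd1 and Scd2. In 5xFAD mice library 3 had the lowest marker sum of its genotype, the highest Scd1 of its genotype and the highest Scd2 of all 9 libraries. None of the 7 markers passed in any comparison. Their part in the desaturase values was not tested.

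The balance of the 2 desaturase genes within a library was steadier than either gene. The ratio of Scd2 to Scd1 per kilobase was 6.46, 6.33 and 6.14 in 5xFAD/Cd5l tg/wt libraries 1, 2 and 3, against 6.21, 6.11 and 5.93 in 5xFAD and 5.57, 5.50 and 5.39 in wild-type. Every amyloid library lay above every wild-type library, and the amyloid genotypes overlapped with each other. Within each genotype the ratio fell from library 1 to 2 to 3, an order that the tests below leave out of account. The mean was 6.31 ± 0.163 in 5xFAD/Cd5l tg/wt, 6.08 ± 0.140 in 5xFAD and 5.49 ± 0.0869 in wild-type mice (SD, n = 3 each). The log2 ratio differed by 0.15 in 5xFAD against wild-type and by 0.20 in 5xFAD/Cd5l tg/wt against wild-type. Exact permutation tests, two-sided, gave p = 0.1 for both, which is the smallest that 3 libraries against 3 can give, and p = 0.2 in 5xFAD/Cd5l tg/wt against 5xFAD. The comparisons with wild-type share those 3 libraries, and the ratio was computed after the values of both genes were seen. The genes are close paralogs, and how reads matching both were counted is not given.

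**Figure D4:**
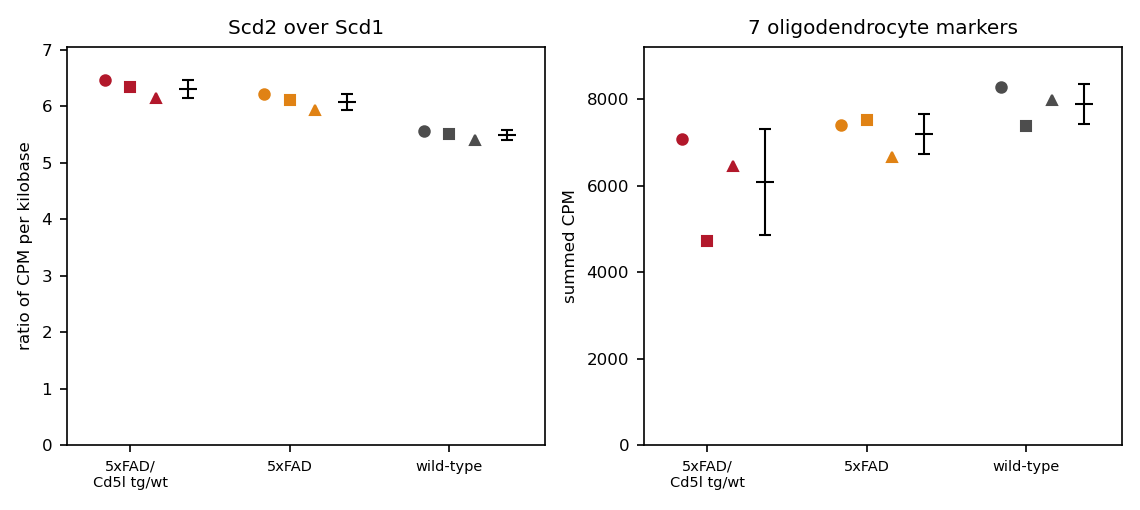
Left, ratio of Scd2 to Scd1 (CPM per kilobase over CPM per kilobase) in each library. Right, summed CPM of 7 markers of mature oligodendrocytes. Circles, squares and triangles are mice 1, 2 and 3, bars show mean ± SD (n = 3), and both axes start at 0. The 6 amyloid libraries have ratios of 5.93 to 6.46, above the wild-type libraries at 5.39 to 5.57.

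Further genes of lipid metabolism gave few calls. In 9 lists with 130 genes, 111 were tested, and 3 of them (2.70%) were called in 5xFAD/Cd5l tg/wt against 5xFAD, 4 (3.60%) in 5xFAD against wild-type and 3 (2.70%) between 5xFAD/Cd5l tg/wt and wild-type. Over all tested genes 5.34% rose and 0.888% fell in the first comparison, 1.06% rose and 2.44% fell in the second, and 1.38% rose and 0.199% fell in the third. The libraries did not overlap for 28.7%, 24.3% and 14.5% of all tested genes in the same order. The genes named below with their values were picked because they passed in at least 1 comparison, so separation of their libraries adds no support. No gene was called in any comparison among 11 other genes of fatty acid synthesis, such as Acly, 13 genes of fatty acid oxidation and the PPARs, 13 of lipid droplets and lipolysis, 7 of AMP-activated kinase, which inactivates acetyl-CoA carboxylase, or 5 tested of 13 in the scavenger receptor cysteine-rich family and its IgM partners. Median log2 fold changes of these 5 lists in 5xFAD/Cd5l tg/wt against 5xFAD were 0.02, -0.07, -0.07, -0.02 and 0.36 in the same order.

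Of 15 genes of SREBP processing and lipogenic transcription factors, 1 rose and none fell in 5xFAD/Cd5l tg/wt against 5xFAD (median 0.08), 0 passed in 5xFAD against wild-type (median -0.06) and 1 rose in 5xFAD/Cd5l tg/wt against wild-type (median 0.02). Mlxipl encodes ChREBP, the glucose-sensing activator of lipogenic genes. It had 6.46, 5.87 and 5.25 CPM in 5xFAD/Cd5l tg/wt libraries, against 3.57, 2.97 and 4.22 CPM in 5xFAD and 2.15, 2.74 and 1.87 CPM in wild-type. These values rest on 27 to 97 counts per library. The genotypes did not overlap, in comparisons where 28.7%, 24.3% and 14.5% of all tested genes did not overlap either. Mlxipl rose in 5xFAD/Cd5l tg/wt against wild-type by 1.37 ± 0.22 on the log2 scale (adjusted p = 0.00513), and with every library left out in turn. The steps between were 0.71 ± 0.21 in 5xFAD/Cd5l tg/wt against 5xFAD (adjusted p = 0.0666) and 0.66 ± 0.22 in 5xFAD against wild-type (0.151), neither of which passed.

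Mlxip, which encodes the related factor MondoA, had 32.3, 35.5 and 34.6 CPM in 5xFAD/Cd5l tg/wt libraries, against 25.5, 24.3 and 24.2 CPM in 5xFAD and 26.3, 29.8 and 33.9 CPM in wild-type. The 5xFAD libraries were the lowest of the 9. It rose by 0.47 ± 0.10 in 5xFAD/Cd5l tg/wt against 5xFAD (adjusted p = 0.0166) and did not pass in 5xFAD against wild-type (-0.28 ± 0.10, adjusted p = 0.173). The rise did not pass without 5xFAD library 1 or 2 or 5xFAD/Cd5l tg/wt library 2 or 3 (adjusted p = 0.0620 to 0.0916), or without the 3 libraries with differing regional markers (0.0933).

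Among 15 LXR partners and target genes, 1 rose when 5xFAD/Cd5l tg/wt was set against 5xFAD (median -0.02), 1 rose and 1 fell in 5xFAD against wild-type (median 0.12), and 1 rose in 5xFAD/Cd5l tg/wt against wild-type (median 0.01). Lpl, the lipoprotein lipase that frees fatty acids from triglycerides and a gene of amyloid-associated microglia, had 46.9, 63.7 and 57.1 CPM in 5xFAD/Cd5l tg/wt libraries, against 43.0, 37.5 and 51.3 CPM in 5xFAD and 27.0, 31.7 and 21.9 CPM in wild-type. Both amyloid genotypes lay above wild-type and overlapped with each other, as did their sums of microglial markers, whose part in the Lpl values was not tested. It rose by 1.05 ± 0.15 in 5xFAD/Cd5l tg/wt against wild-type (adjusted p = 0.00256) and by 0.70 ± 0.15 in 5xFAD against wild-type (0.0245), and it was 0.35 ± 0.15 in 5xFAD/Cd5l tg/wt against 5xFAD (0.189). Removal of library 1 or 3 of either 5xFAD or wild-type mice left the rise in 5xFAD short of the threshold (adjusted p = 0.0647 to 0.101). The value between the amyloid genotypes was 0.34 and passed when no filter was used (adjusted p = 0.0220), and it was 0.080 without the 3 libraries with differing regional markers (0.799). The rise in 5xFAD/Cd5l tg/wt against wild-type was 0.67 without those 3 (0.0458).

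Pltp, the phospholipid transfer protein gene, had 88.6, 75.3 and 75.8 CPM in 5xFAD/Cd5l tg/wt libraries, against 52.3, 50.1 and 58.4 CPM in 5xFAD and 88.7, 79.1 and 70.3 CPM in wild-type. The 5xFAD libraries stood below all others, as they did for Mlxip, the nuclear-retained RNAs and the endothelial markers, and the part of those in these values was not tested. Pltp rose by 0.58 ± 0.10 in 5xFAD/Cd5l tg/wt against 5xFAD (adjusted p = 0.00662), fell by 0.57 ± 0.10 in 5xFAD against wild-type (0.00970) and was 0.01 ± 0.10 in 5xFAD/Cd5l tg/wt against wild-type (0.985). The first did not pass without 5xFAD library 2 (0.0579), and the second without 5xFAD library 1 or 2 (0.0639 and 0.0643). The 5xFAD libraries enter both differences.

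Acsl3, which activates long-chain fatty acids to acyl-CoA, showed the opposite order. It had 189, 186 and 191 CPM in 5xFAD/Cd5l tg/wt libraries, against 231, 235 and 217 CPM in 5xFAD and 185, 188 and 201 CPM in wild-type, with the 5xFAD libraries above all others. It fell by 0.27 ± 0.06 in 5xFAD/Cd5l tg/wt against 5xFAD (adjusted p = 0.0252) and rose by 0.25 ± 0.06 in 5xFAD against wild-type (0.0478), again with shared 5xFAD libraries. It was the 1 gene called in either comparison among 15 tested genes of fatty acid uptake, binding and activation, of which none passed in 5xFAD/Cd5l tg/wt against wild-type. The fall did not pass without 5xFAD library 1 or 2 or 5xFAD/Cd5l tg/wt library 2 or 3 (adjusted p = 0.0615 to 0.131), or without the 3 libraries with differing regional markers (0.0538). The rise was lost on removal of 5xFAD/Cd5l tg/wt library 3, any of the 5xFAD libraries, or library 1 or 2 of wild-type (0.0584 to 0.207).

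In elongation and desaturation, 0 of 17 tested genes passed in 5xFAD/Cd5l tg/wt against 5xFAD (median -0.12), 1 rose in 5xFAD against wild-type (median 0.05) and 1 rose in 5xFAD/Cd5l tg/wt against wild-type (median -0.09). Fads2, the desaturase at the entry to polyunsaturated fatty acid synthesis, had 177, 171 and 160.3 CPM in 5xFAD/Cd5l tg/wt libraries, against 183, 181 and 189 CPM in 5xFAD and 142, 152 and 151 CPM in wild-type. It rose by 0.31 ± 0.06 in 5xFAD against wild-type (adjusted p = 0.0193), but not past the threshold without wild-type library 1 or any 1 of the 5xFAD libraries (0.0694 to 0.0842). Hacd4, a dehydratase of very long chain fatty acid synthesis, had 5.59, 4.59 and 5.30 CPM in 5xFAD/Cd5l tg/wt libraries, against 3.97, 3.98 and 3.68 CPM in 5xFAD and 3.31, 2.49 and 2.83 CPM in wild-type. Its rise of 0.84 ± 0.19 in 5xFAD/Cd5l tg/wt against wild-type was at the threshold (adjusted p = 0.0494) and was lost when any single library of the 9 was removed (0.0622 to 0.158).

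**Figure D5:**
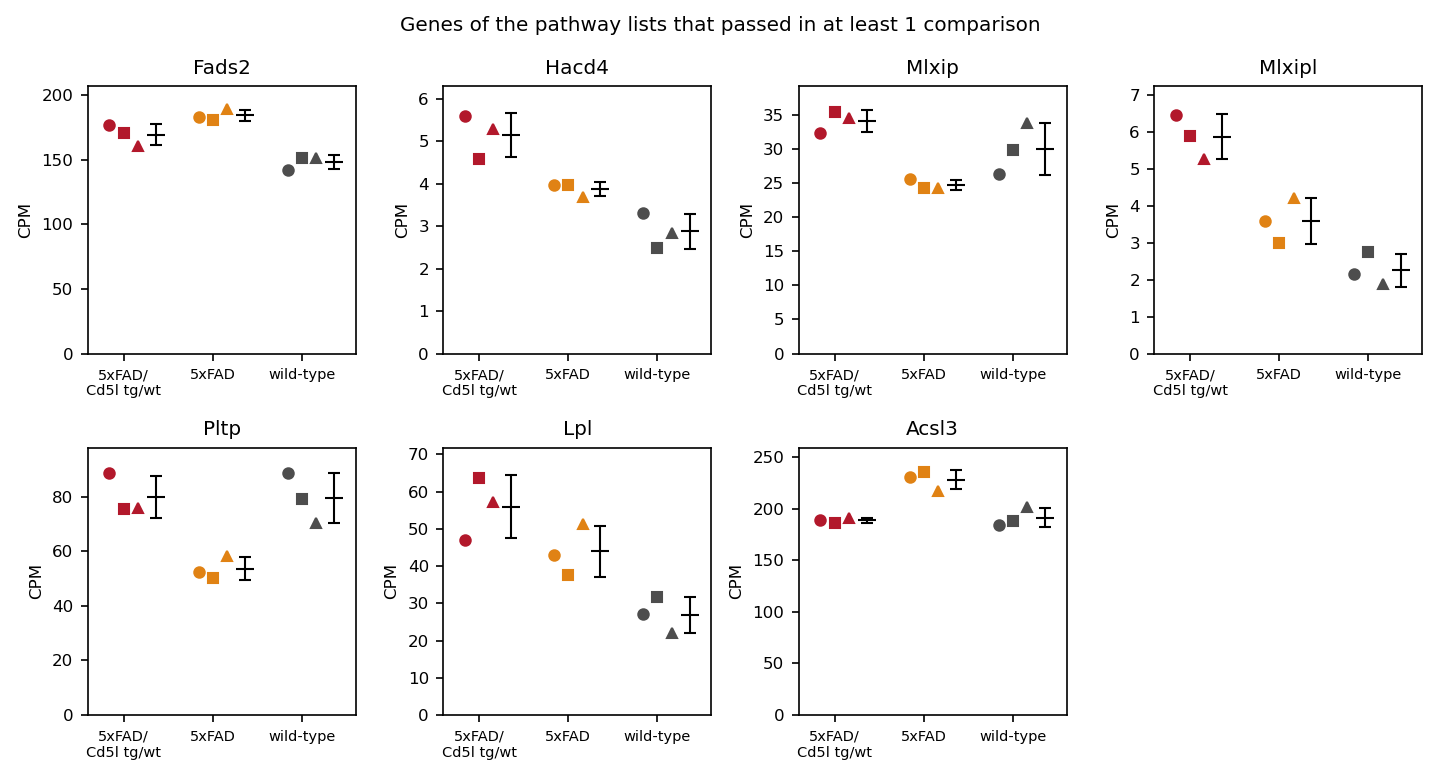
CPM of the 7 genes of the lipid lists that passed in at least 1 comparison, in each library by genotype. Circles, squares and triangles are mice 1, 2 and 3, bars show mean ± SD (n = 3), and vertical axes start at 0. Mlxipl, Hacd4 and Lpl have their means in the order 5xFAD/Cd5l tg/wt, 5xFAD, wild-type from high to low, while Pltp and Mlxip are lowest and Acsl3 highest in 5xFAD.

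The genes whose log2 CPM went most closely with each member over the 9 libraries were picked as the highest Pearson r among 15899 other genes with a mean of at least 1 CPM, and they are named as a description. For Cd5l, high in 3 libraries and near 0 in 6, they were Il1a (r = 0.98), which encodes the cytokine interleukin 1 alpha, Tcirg1 (r = 0.97), a subunit gene of the vacuolar proton pump, and Arhgap17 (r = 0.95). For Scd1 they were the calcium channel subunit genes Cacng5 (r = 0.97) and Cacna2d2 (r = 0.97) and the small GTPase gene Diras1 (r = 0.97). For Scd2 the closest was Scarb2 (r = 0.98), which encodes a lysosomal membrane protein, for Fasn the repressor gene Cic (r = 0.95), for Srebf1 Nop14 (r = 0.95) and for Acaca Vwa5a (r = 0.92). For Cd36, Nr1h2 and Nr1h3 they were Aldh3b2 (r = 0.95), Gm42723 (r = 0.95) and Nwd1 (r = 0.94).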

How the data were processed

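The authors deposited 1 table of unnormalized read counts per Ensembl gene in 9 libraries, with gene coordinates and a gene length in bases per the file headers. The submitters' processing notes name the build GRCm39. The aligner, the counting tool, its strand setting and its treatment of multi-mapping reads are not given in the sources used. Libraries were grouped by the genotype in their labels.

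The filterByExpr function of edgeR, with a minimum count of 10 and a minimum total of 15, left 17575 genes, and the genes it removed held at most 0.161% of any library. After TMM scaling (factors 0.987 to 1.018) a single quasi-likelihood fit took in the 9 libraries, in edgeR 4.0.16 with limma 3.58.1 and R 4.3.3, with 1 coefficient per genotype and Benjamini-Hochberg adjustment over all tested genes. The SE is the log2 fold change divided by the square root of F, and intervals use the fit's degrees of freedom. Values per kilobase divide CPM by the deposited gene length. Intervals and floors on counts cover counting error only. Log2 CPM for relations and likeness used a prior count of 2. The fit was also run on counts simulated from its own means and dispersions, which does not test the calls or intervals in these libraries.

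The rule for named genes was all 9 members, up to 4 called genes per list and comparison with the smallest p, and the 3 genes most like each member, of which the closest 1 or 3 are given. Members, lists and the libraries left out together were chosen with earlier results of these data known. Alternatives were scaling by RLE or by total counts, no filter or one at 1 CPM, other tools (DESeq2 1.42.0 and limma-voom), a fit of the 6 libraries compared, a block for the replicate number, an offset for gene length, and leaving out libraries. Figures were drawn with matplotlib 3.10.9.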

Additional observations from a re-analysis of the deposited data

How the results depend on the processing

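With 0 of 8 lipid genes called in each comparison, the count stayed at 0 under RLE and total-count scaling, a filter of 1 CPM, DESeq2, limma-voom, a fit of 6 libraries, a length offset and the removal of 3 libraries together. With no filter 1 gene passed in 5xFAD/Cd5l tg/wt against wild-type, Scd1 (adjusted p = 0.0108). Leaving out 1 library at a time gave 0 to 2 calls in 5xFAD/Cd5l tg/wt against 5xFAD, 0 to 1 against wild-type, and a Cd5l bound of 1872 to 3117-fold, which scales with the 5xFAD counts left. The order of levels was not recomputed with exon lengths, as no annotation of GRCm39 was used.

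Some values that had not passed changed sign, and the cause was not tested. Without the 3 libraries with differing regional markers, Cd36 was 0.21 and Scd2 0.015 in 5xFAD/Cd5l tg/wt against 5xFAD. Scd1 was 0.012 and Nr1h3 0.0064 in 5xFAD against wild-type in that fit, and Cd36 was 0.62, Scd2 0.16 and Acsl3 0.013 in 5xFAD/Cd5l tg/wt against wild-type. Acaca was -0.033 in 5xFAD/Cd5l tg/wt against 5xFAD with the length offset, and Pltp was -0.0012 against wild-type with no filter. Leaving out single libraries gave Srebf1 -0.088 to 0.23 and Nr1h3 -0.52 to 0.016 in 5xFAD/Cd5l tg/wt against 5xFAD. It gave Fasn -0.020 to 0.10, Scd1 -0.13 to 0.0017, Srebf1 -0.18 to 0.042 and Nr1h2 -0.081 to 0.027 in 5xFAD against wild-type. In 5xFAD/Cd5l tg/wt against wild-type it gave Cd36 -0.58 to 0.36, Srebf1 -0.14 to 0.16, Pltp -0.075 to 0.10 and Acsl3 -0.044 to 0.018.

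With the replicate number as a block, 0 of the 8 genes passed in every comparison, and the calls over all genes were 836, 506 and 240, against 1095, 615 and 277 without it. Acsl3 did not pass under the block (adjusted p = 0.0541 and 0.0987), nor Hacd4 (0.0846). Over all tested genes, same-numbered libraries were not more alike than others (correlations of -0.100 to 0.154, with 2 of 9 libraries most like their own number). The numbers were therefore not taken to pair mice, although the ratio of Scd2 to Scd1 followed them in every genotype. Hacd4 also did not pass with RLE, total counts, limma-voom, 6 libraries, the length offset or without the 3 libraries (0.0510 to 0.164). Cd36 and Nr1h3 rest on the fewest counts of the 8 genes.

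The calls over all genes, the background of these counts, were 2063, 1354 and 1062 with no filter in the same order of comparisons, and 630 and 1154 in the first 2 without the 3 libraries. In the third they were 472 with DESeq2 and 176 with 6 libraries. Removal of single libraries gave 278 to 2069, 206 to 850 and 158 to 686.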
